A study of Mus musculus with 4 samples.

Results

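The Pi16 class comprised 108 fibroblasts from the mammary tissue of newborn mice, selected on their counts of Pi16, Dpp4 and Sema3c. Counts are UMIs (unique molecular identifiers), each standing for 1 captured transcript. Of the 1466 cell barcodes in the P0 library, 503 had at least 5000 UMIs with at most 6% of them from mitochondrial genes. Among these, 265 mesenchyme cells held at least 10 UMIs of the fibrillar collagen genes Col1a1, Col1a2 and Col3a1, and more than 2 times as many of these as of the 6 epithelial genes Epcam, Krt8, Krt18, Krt5, Krt14 and Krt15. Mesenchyme cells with at least 7 UMIs of Pi16, Dpp4 and Sema3c together formed the class, and the other 157 mesenchyme cells are called the rest. The class made up 40.8% of the P0 mesenchyme (exact 95% binomial interval 34.8 to 46.9) and 21.5% of the kept P0 cells. Over the 4 stages of the series, 1630 cells were kept.

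The study followed mammary development in WT C57B6 female mice (C57 B6/N in the study's methods) from E13.5 over E14.5 and E15.5 to the day of birth (P0), with 1 library per stage made from pooled animals. No group carried a transgene, a deletion or a treatment. EpCAM-positive epithelial and EpCAM-negative stromal cells were taken by flow cytometry, and cells stained for CD45, CD31 or Ter119 (blood, endothelial and red cell markers) and dead cells were discarded. At P0 the tissue was digested with collagenase and hyaluronidase and red cells were lysed. The sort set how many stromal cells entered the library, so the share of all kept cells given above depends on it. Other shares held by the class are given within the mesenchyme. With 1 library there is no replicate and no test: intervals throughout are exact 95% intervals that cover counting error only. The class is moreover a range of a count cut from the same cells that are described, so every difference below is a description of these cells.

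The 108 cells held 1146263 UMIs, with 5931 in the shallowest cell, a median of 9896 and 28761 in the deepest. The rest held 1310819 UMIs, with a lowest, median and highest cell of 5000, 7910 and 17759. The class was therefore the deeper group, and a gate on a number of UMIs takes deeper cells more readily. With every cell thinned to 5000 UMIs and the gate kept at 7, 73 cells passed, 27.55% of the mesenchyme (22.26 to 33.35). With the gate lowered to 4 after thinning, 110 cells passed, 41.5%. The share therefore depends on the depth and on the gate chosen for it. After the same thinning the median number of genes was 1774 in the class and 1729 in the rest. Mitochondrial UMIs had a median of 1.38% in the class and 1.57% in the rest. No barcode of the P0 library was shared with another stage. Scrublet, a doublet caller, marked 4 kept P0 cells, all of them in the rest. One cell of the rest stood apart, with 10628 globin UMIs among 12158 in all and only 11 UMIs of the 3 collagen genes.

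Fibroblasts marked by Pi16 and Dpp4 are known from many connective tissues, where they lie in the fascia, the interstitium and the adventitia of vessels and are regarded as progenitor-like cells. In adipose tissue, cells of this kind are held to give rise to committed preadipocytes, which carry Icam1 and Pparg. Pi16 encodes peptidase inhibitor 16, Dpp4 a dipeptidyl peptidase of the cell surface, Sema3c a secreted semaphorin, Wnt2 a Wnt ligand and Cd55 a brake on complement at the cell surface.

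Promoter sequences are shown for 3 genes that were higher in the class, Igfbp5 because it had the highest ratio to the rest, Cadm3 because it held the AP-1 motif, and Wnt2 because it is a marker that the gate did not use. Each line gives the 250 bases before the gene's start, 5′ to 3′ on the gene's own strand, from RefSeq on GRCm38.p6. They lie on the minus strand at chr1:72874866-72875115 (Igfbp5), chr1:173367696-173367945 (Cadm3) and chr6:18030446-18030695 (Wnt2). The starts are those of RefSeq. For Cadm3 this start coincides with that of the GENCODE gene model, whereas for Igfbp5 and Wnt2 GENCODE places it further upstream, so that part of these stretches, for Wnt2 including both marked strings, lies inside the GENCODE gene. Capitals mark TGANTCA (AP-1), CACCC (the core of Klf sites) or CCAAT, or the reverse complement of one of them.
Igfbp5: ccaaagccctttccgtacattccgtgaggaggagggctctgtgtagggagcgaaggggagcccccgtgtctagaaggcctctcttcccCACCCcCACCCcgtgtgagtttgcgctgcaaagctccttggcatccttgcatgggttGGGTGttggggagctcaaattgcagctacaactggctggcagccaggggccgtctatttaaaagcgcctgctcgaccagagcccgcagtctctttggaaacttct
Cadm3: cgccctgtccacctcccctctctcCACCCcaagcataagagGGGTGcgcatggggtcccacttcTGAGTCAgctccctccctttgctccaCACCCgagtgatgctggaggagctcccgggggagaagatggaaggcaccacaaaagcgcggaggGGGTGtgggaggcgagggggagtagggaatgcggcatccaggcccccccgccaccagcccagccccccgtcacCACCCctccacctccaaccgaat
Wnt2: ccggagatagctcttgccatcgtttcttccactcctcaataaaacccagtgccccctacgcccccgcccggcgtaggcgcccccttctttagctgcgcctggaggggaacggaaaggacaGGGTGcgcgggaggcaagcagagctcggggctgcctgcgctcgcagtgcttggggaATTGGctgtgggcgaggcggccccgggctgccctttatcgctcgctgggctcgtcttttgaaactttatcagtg
In Igfbp5, CACCC or its complement lay 162, 156 and 105 bases before the start. Cadm3 had the AP-1 motif 186 bases before the start and CACCC in 5 places. Wnt2 had a reversed CCAAT 74 bases and a reversed CACCC 130 bases before the RefSeq start. Of the 15 genes named as higher and the 15 named as lower by the rule given further down, 9 and 9 had an entry in the promoter table, with 15 promoters in each set. The AP-1 motif was in 4 of the 15 promoters of higher genes (26.7%), in 0 of the 15 of lower genes and in 6.75% of the 32851 promoters in the table. The 4 belonged to Cadm3, Efemp1 and Prss23, and Prss23 alone had 7 entries among the 15, some of them overlapping, with 1 AP-1 string counted in 2 of them, so the shares are no independent sample of genes. CACCC was in 60% of both sets and in 52.0% of all promoters. CCAAT was in 20% of the higher, 33.3% of the lower and 33.8% of all promoters. TATAAA was in 6.67%, 20% and 12.4%, and the CRE motif in 0, 0 and 1.55%. The lower set is no independent sample either: Pakap had 5 and Apoe 3 of its 15 entries, and the 4 haemoglobin genes, whose UMIs in the rest come almost all from 1 cell, gave 4 of its 5 entries with CCAAT and 1 of its 3 with TATAAA. A match is a string of letters and not a site shown to be bound.

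The 3 genes of the gate were spread unevenly over the class, and the values that follow chose its members. Levels are in CPM, the UMIs of a gene scaled to the total UMIs of the cells (counts per 1e+06). Pi16 (chr17:29317680-29330593 in GRCm38, plus strand) stood at 834 CPM (782 to 889) in the class and at 34.3 CPM in the rest. Its lowest, median and highest counts were 0, 7 and 42 UMIs per cell in the class and 0, 0 and 6 in the rest. Dpp4 (chr2:62330073-62412231, minus strand) was at 361 CPM (327 to 398) against 43.5 CPM, with 0, 3 and 14 UMIs per cell in the class. Sema3c (chr5:17574281-17730268, plus strand) was at 1064 CPM (1005 to 1126) against 116 CPM, with 1, 11 and 35 UMIs per cell. Sema3c was thus the only one of the 3 found in every member, while 6 members had no Pi16 and 15 had no Dpp4.

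In 88 of the 108 members all 3 gate genes were detected, against 6 cells of the rest and 0 of 229 epithelial cells, for which 3 counts of the total allow up to 1.31% of cells with a UMI of each. Sema3c alone gave more gate UMIs than the other two genes together in 42 members, Pi16 in 22 and Dpp4 in 2. After thinning to 5000 UMIs, 96.3% of the class, 40.8% of the rest and 25.3% of epithelial cells had a Sema3c UMI. Free RNA in the droplets can give such UMIs, but the source of those in epithelial cells was not tested. In epithelial cells Sema3c was at 77.4 CPM and Col1a1 at 93.2 CPM, and unthinned 36.2% of them had a UMI of Sema3c and 56.8% one of Col1a1. In the class the levels of these genes were 1064 and 37290 CPM. Pi16 and Dpp4 were found in 3.49% and 1.31% of thinned epithelial cells, 87.0% and 72.2% of the class, and 11.5% and 14.6% of the rest. The gate total ran from 7 to 81 UMIs with a median of 20 in the class and from 0 to 6 with a median of 1 in the rest. Near the threshold lay 18 cells with 5 or 6 gate UMIs and 10 with 7 or 8. Wnt2 was at 33.2 CPM (10.8 to 77.5) just outside and 21.4 CPM (2.59 to 77.3) just inside, and Cd55 at 193 CPM (129 to 277) just outside and 171 CPM (97.8 to 278) just inside, and the intervals on both sides of the cut overlapped for both markers.

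The other markers, which the gate did not use, were both higher in the class. Wnt2 (chr6:17988940-18030585, minus strand) was at 132 CPM (112 to 155) against 23.7 CPM (16.1 to 33.6), a ratio of 5.57 (3.77 to 8.48). Its lowest, median and highest counts were 0, 1 and 14 UMIs per cell in the class and 0, 0 and 4 in the rest, and no Wnt2 UMI was found in epithelial cells. Cd55 (chr1:130439027-130462744, minus strand) was at 301 CPM (270 to 335) against 73.2 CPM (59.3 to 89.4), a ratio of 4.11 (3.27 to 5.21), with 0, 2 and 13 UMIs per cell against 0, 0 and 11. After thinning, 38.0% of the class and 8.92% of the rest had a Wnt2 UMI, and 61.1% and 25.5% had one of Cd55, with 0 and 6.55% in epithelial cells. The cells overlapped at 0 for both genes: 46 members had both, 17 had neither, and 11 cells of the rest had both. All 5 markers were found together in 43 members and in 1 cell of the rest.

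**Figure D1:**
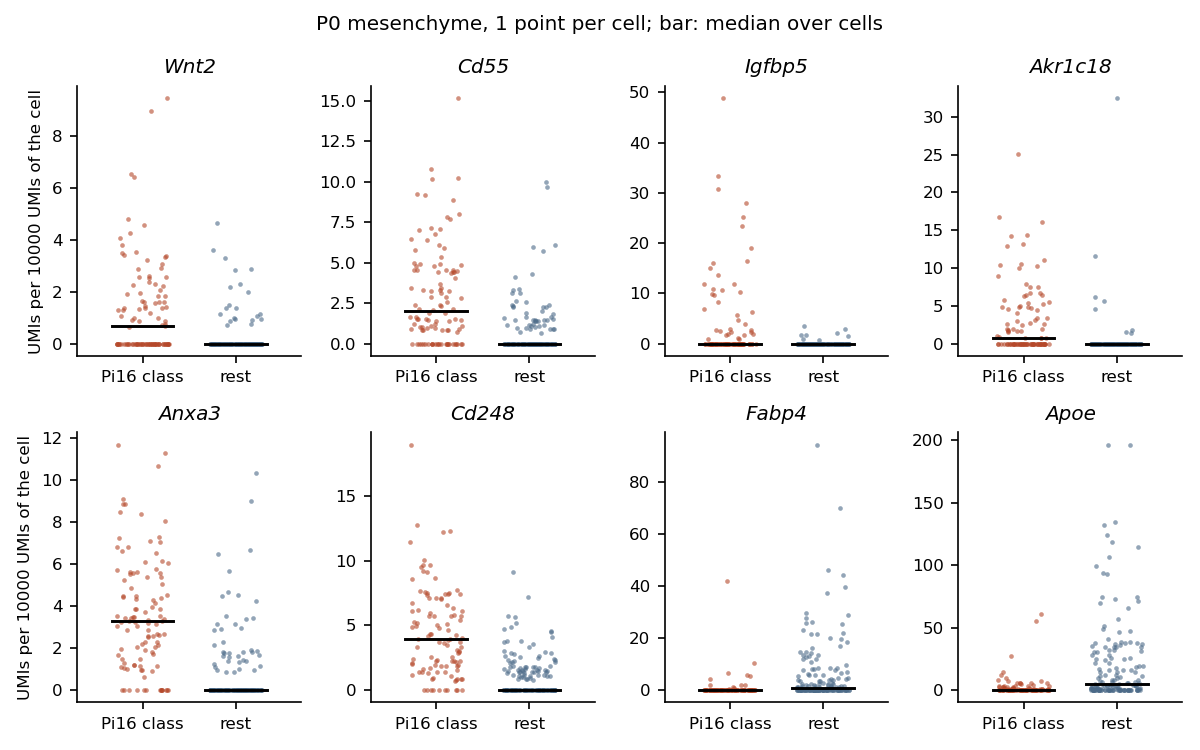
Levels of 8 genes in each P0 mesenchyme cell, in UMIs per 10000 UMIs of the cell (vertical axes), for the 108 cells of the Pi16 class and the 157 of the rest. Points are cells and bars are medians. Wnt2, Akr1c18, Cd55, Anxa3 and Cd248 have medians above 0 in the class, while Igfbp5 is at 0 in 71 of the 108 cells, and Fabp4 and Apoe reach higher values in the rest.

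Fibroblast markers were present in the class. Dcn (decorin, a small proteoglycan), Lum (lumican), Col5a1 and Col6a1 were detected in 100% of the class, at 5143, 1218, 2145 and 1180 CPM. Pdgfra, a growth factor receptor of fibroblasts, was at 150 CPM (128 to 174) in the class and 177 CPM (155 to 201) in the rest, with a UMI in 72 members. Across 21 pan-fibroblast genes, 19 had at least 100 UMIs over both groups, the minimum for a comparison. Of these, 2 were higher in the class and 0 lower, where higher means a CPM ratio of at least 2 (4.19% of all genes compared) and lower one of at most 0.5 (4.10%), and their median log2 ratio was 0.13. Thy1 (CD90, a surface glycoprotein) was at 77.6 against 14.49 CPM (ratio 5.36, 3.24 to 9.31), and Fstl1 (a secreted follistatin-like glycoprotein) at 4557 against 2012 CPM (2.27, 2.16 to 2.37). Sparc, a collagen-binding matricellular protein, was at 12960 against 6829 CPM (1.90), and Fbln1 (fibulin 1) at 229 against 417 CPM (0.551), both short of the threshold.

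Markers of other cell types that such a sort could hold were mostly few in the class, but some were higher there than in the rest. Of 10 immune genes, 8 were at 0, among them Ptprc (CD45), and the list summed to 2 UMIs, with C1qa at 1 UMI. Of 10 endothelial genes, 6 were at 0, including Cdh5. The list summed to 148 CPM in the class and 61.0 in the rest, and its most abundant gene was Tek, an angiopoietin receptor, at 105 CPM (86.8 to 125) against 25.2 CPM (17.3 to 35.4), a ratio of 4.16 (2.81 to 6.31). Tek was spread over 66 members, at most 6 UMIs each, and Pecam1 at 41.0 against 29.0 CPM lay below the minimum for a comparison. Of 16 epithelial genes outside the gate, 3 were at 0, and the list summed to 109 CPM in the class, 711 in the rest and 10730 in epithelial cells. Wfdc18, a secreted protein of the WAP family made by mammary epithelium and the most abundant of the list, was at 34.0 CPM in the class and 417 in the rest, where 1 cell held 330 of 547 UMIs. No member had over 20 UMIs of the 6 epithelial gate genes, against 4 cells of the rest. Krtdap, a gene of differentiating keratinocytes outside the lists and chosen after its values were seen, was at 92.5 CPM (75.7 to 112) in 30 members against 24.4 CPM (16.7 to 34.5) in 8 cells of the rest, a ratio of 3.79 (2.53 to 5.82). The part of epithelial transcripts in the comparison was not tested.

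Pericyte and smooth muscle genes (11, of which 2 at 0) summed to 160 CPM in the class and 139 in the rest. Rgs5, a defining pericyte marker, was at 0, and Abcc9, a potassium channel subunit and the most abundant of them, was at 68.1 against 32.0 CPM (2.12, 1.44 to 3.17). Against the Eln Mfap4 Mgp cells of the rest, defined further down, the log2 ratio of Abcc9 was -0.32. Of 10 Schwann and neural genes, 5 were at 0 and the sum was 29.7 against 41.2 CPM, mostly S100b. Of 10 mesothelial genes, 6 were at 0, with a sum of 108 against 349 CPM, led by Krt18. Of 11 tendon, muscle and cartilage genes, 7 were at 0, and the sum was 5.23 against 23.7 CPM, with Col2a1 at 2 UMIs. The 8 erythroid genes, 2 of them at 0, summed to 21.8 CPM against 8151 CPM. None of the neural, mesothelial, tendon or immune genes that the lists hold outside the gate reached the minimum for a comparison.

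Across the transcriptome, the Pi16 class differed from the rest past the threshold in a small share of genes. Of 3076 genes with at least 100 UMIs outside the 12 genes of the gates, 129 (4.19%) were higher in the class and 126 (4.10%) were lower. Past a ratio of 3 there were 36 higher and 48 lower genes, and the median log2 ratio of all genes was -0.01. Since the class was cut from these cells, nothing is read from these counts; they are the background beside which the gene groups below stand. The genes named were the 15 with the highest lower bound and the 15 with the lowest upper bound of the ratio.

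The highest ratio was that of Igfbp5 (chr1:72857932-72874884, minus strand), which encodes a secreted binding protein for insulin-like growth factors. It stood at 406 CPM (370 to 444) in the class and 10.7 CPM (5.84 to 17.9) in the rest, a ratio of 38.0 (22.4 to 70.0). Its counts were 0 in the lowest and median member and 62 in the highest, and 0, 0 and 3 in the rest. Igfbp5 was therefore a gene of a minority of the class, seen in 37 members and 8 cells of the rest, and in epithelial cells it was at 146 CPM. Thinned to 5000 UMIs, 30.6% of the class, 3.18% of the rest and 33.6% of epithelial cells had a UMI.

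Akr1c18 (chr13:4132615-4150654, minus strand), a steroid dehydrogenase that inactivates progesterone, was at 305 CPM (273 to 338) against 37.4 CPM (27.7 to 49.4), a ratio of 8.14 (6.03 to 11.2). Its counts ran from 0 over a median of 1 to 25 UMIs in the class. In the rest, 8 cells carried it and 1 of these held 22 of the 49 UMIs. Anxa3 (annexin A3) was at 365 CPM (331 to 401) against 79.3 CPM, a ratio of 4.60 (3.70 to 5.75), with 0, 3 and 14 UMIs per cell in the class. It was also found in epithelial cells, at 394 CPM. Cd248 (endosialin, a surface protein of stromal progenitors) was at 450 CPM (412 to 491) against 110 CPM, a ratio of 4.10 (3.40 to 4.96), with 0, 4 and 19 UMIs per cell against 0, 0 and 6. Cd248 was seen in 98 members but also in 72 cells of the rest, so the groups overlapped.

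Further secreted signals and receptors stood among the 15. Ackr3, a scavenging receptor for Cxcl12, was at 210 against 29.7 CPM (7.07, 5.02 to 10.2). Sema3d, like Sema3c a secreted semaphorin, was at 149 against 22.9 CPM (6.52, 4.40 to 9.96), and Bmp3, a BMP ligand that antagonises other BMPs, at 87.2 against 12.2 CPM (7.15, 4.19 to 12.98). Cadm3, a cell adhesion molecule, was at 117 against 12.2 CPM (9.58, 5.69 to 17.2) and was at 0 in epithelial cells. Tmem100, a transmembrane protein induced by BMP signalling in endothelium, was at 91.6 against 14.49 CPM (6.32, 3.85 to 10.9). Each of these 5 genes was seen in 45 to 77 members, with at most 17 UMIs in a cell.

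Matrix proteins and matrix-cutting enzymes completed the group. Cthrc1, a secreted protein of collagen-producing fibroblasts, was at 461 against 87.7 CPM (5.25, 4.28 to 6.48). Efemp1 (fibulin 3) was at 444 against 106 CPM (4.19, 3.47 to 5.09), Adamts5 (an aggrecan-cutting protease) at 312 against 67.9 CPM (4.60, 3.64 to 5.87), and Prss23 (a serine protease) at 118 against 19.1 CPM (6.17, 4.01 to 9.88). P2rx4, an ATP-gated ion channel, had a ratio of 6.93, but 85 of its 97 UMIs in the class were in 1 cell and without that cell its log2 ratio was -0.20.

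**Figure D2:**
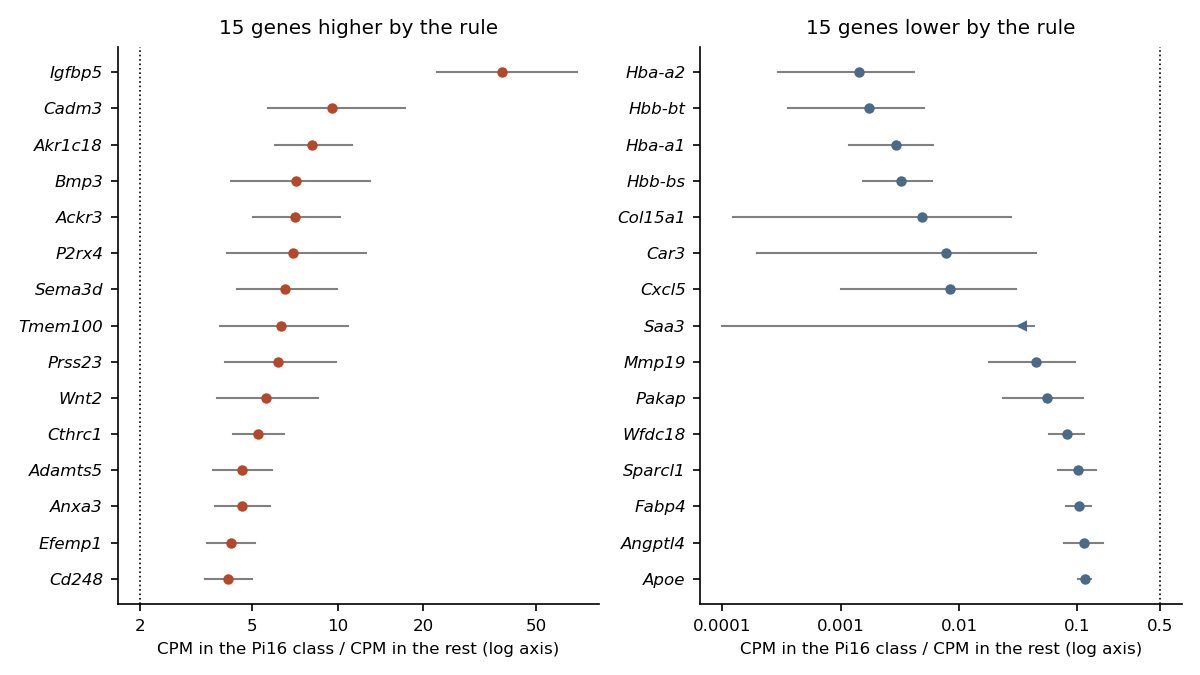
Ratio of the level in the Pi16 class to that in the rest (log axes) with its exact 95% interval (lines) for the 15 higher and the 15 lower genes of the rule; dotted lines mark ratios of 2 and 0.5, and the arrow for Saa3 an upper bound of 0.0343. Igfbp5 lies highest at 38.0, and the other 14 higher genes lie between 4.10 and 9.58.

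Among the 15 lower genes were several of the adipogenic list. Col15a1, a basement membrane collagen, was at 0.872 CPM in the class (1 UMI in 1 cell) and at 179 CPM (156 to 203) in the rest, 205-fold lower (36.4 to 8116). Its highest count per cell was 1 in the class and 17 in the rest, where 63 cells carried it. Fabp4, a fatty acid binding protein, was at 64.6 CPM (50.7 to 81.1) against 626 CPM (584 to 670), a ratio of 0.103 (0.0802 to 0.131). In the class 12 cells carried Fabp4 and 1 of them held 30 of the 74 UMIs, while 83 cells of the rest had it. Apoe, a lipid-carrying apolipoprotein, was at 231 CPM (204 to 261) against 1995 CPM (1919 to 2073), a ratio of 0.116 (0.102 to 0.132), with 0, 0 and 62 UMIs per cell in the class and 0, 4 and 136 in the rest. Apoe was seen in 21.8% of thinned epithelial cells and in 27.8% of thinned members, close to each other, and in 66.9% of the thinned rest.

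Sparcl1, a matricellular protein, was at 28.8 against 284 CPM (0.101, 0.0688 to 0.145), Angptl4, a secreted inhibitor of lipoprotein lipase, at 27.9 against 243 CPM (0.115, 0.0771 to 0.165), and Mmp19, a matrix metalloproteinase, at 6.11 against 136 CPM (0.0450, 0.0178 to 0.0946). Pakap, under whose symbol the table has 2 identifiers, was at 6.98 against 126 CPM. These 4 genes were spread over 54 to 86 cells of the rest. Others rested on few cells of the rest: Cxcl5, a neutrophil-attracting chemokine, had 275 UMIs in 12 cells against 2 in the class, Car3, a carbonic anhydrase of fat and muscle, 146 UMIs in 4 cells against 1, and Saa3, an acute-phase protein, 100 UMIs against 0, of which 73 were in 1 cell (ratio at most 0.0343).

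The 4 haemoglobin genes Hba-a1, Hba-a2, Hbb-bs and Hbb-bt had ratios of 0.00293, 0.00142, 0.00323 and 0.00173, but they were in effect 1 cell. The genes within each pair are near-identical copies, between which reads can be split or lost. The rest held 10670 globin UMIs, of which 10628 were in the cell described above. The other 156 cells of the rest had 42 and the class had 23, and without that cell none of the 4 reached the minimum for a comparison. With it left out, 126 genes were higher and 127 lower.

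The interstitial progenitor list, 47 genes known from Pi16 and Dpp4 fibroblasts of other tissues, was shifted to the class. Of 41 measured genes, 29 were higher and 0 lower, with a median log2 ratio of 1.38 against -0.01 over all genes compared. Wnt2 and Cd55 are in the list, and earlier results on this library were known when it was drawn up, so its direction is not independent evidence. Fbn1 (fibrillin 1, the backbone of microfibrils) was at 3269 against 1020 CPM (3.20, 3.01 to 3.41), Mfap5 (a microfibril-associated protein) at 2887 against 864 CPM (3.34, 3.12 to 3.58), Cd34 (a sialomucin of stromal and haematopoietic progenitors) at 623 against 217 CPM (2.86, 2.49 to 3.30), and Ly6c1 (a GPI-anchored surface protein with a near-identical copy, so that its count is uncertain) at 310 against 108 CPM (2.88, 2.36 to 3.52). These 4 genes and those of the next sentence were chosen after their values were seen. Fn1 (fibronectin) was at 4838 against 1993 CPM (2.43), Axl (a receptor kinase) at 456 against 167 CPM (2.73), Scara5 (a ferritin receptor) at 137 against 36.6 CPM (3.74), and Procr (the protein C receptor) at 67.2 against 98.4 CPM (0.683).

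Summed over the 47 genes, members thinned to 5000 UMIs held from 38 to 279 UMIs with a median of 153.5, cells of the rest from 2 to 171 with a median of 59, and epithelial cells a median of 8. The groups overlapped between 38 and 171 UMIs, although 1 member lay at or below the median of the rest and 3 cells of the rest at or above the median of the class. The list of adipogenic fibroblast genes went the other way. Of 30 genes 18 were measured, 0 were higher and 14 lower, with a median log2 ratio of -2.18. Several of its genes (Fabp4, Col15a1, Mmp19, Aoc3, Col4a1, Col4a2 and Sparcl1 among them) had been picked from this library before, so this count is not independent evidence either. Thinned sums were 14, 46 and 107 UMIs in the lowest, median and highest member and 0, 79 and 235 in the rest.

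**Figure D3:**
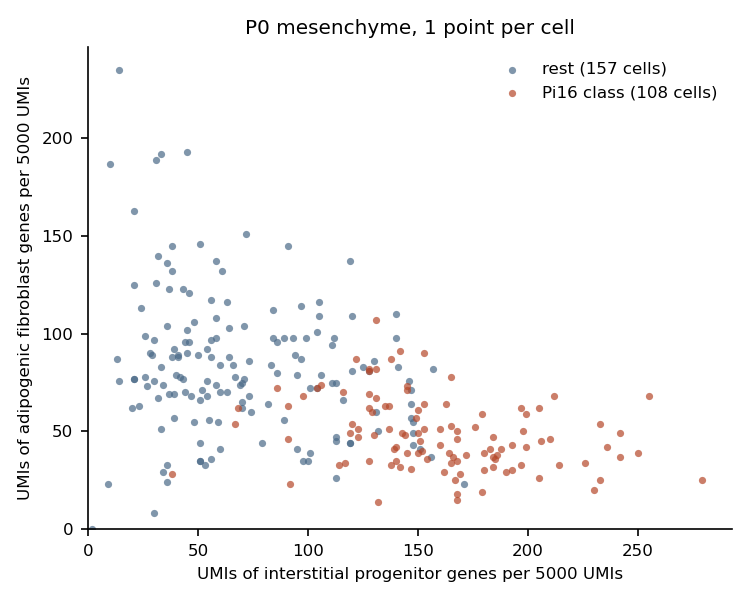
UMIs of 47 interstitial progenitor genes (horizontal axis) against UMIs of 30 adipogenic fibroblast genes (vertical axis) in each P0 mesenchyme cell, with every cell thinned to 5000 UMIs. Points are the 108 cells of the Pi16 class and the 157 of the rest; members lie to the right, with a median of 153.5 against 59 progenitor-list UMIs, and no higher than 107 adipogenic-list UMIs, where the rest reaches 235.

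The adipogenic genes were not equally low. Lpl (lipoprotein lipase) was at 574 CPM (531 to 620) in the class, against 1501 CPM (1436 to 1569) in the rest, a ratio of 0.382 (0.350 to 0.418), and was seen in 93 members. Dlk1, a preadipocyte factor, did not separate the groups, at 7077 against 7695 CPM (0.920, 0.893 to 0.947). Icam1, an adhesion molecule of committed preadipocytes, was at 73.3 against 204 CPM (0.358), Plin2, a lipid droplet protein, at 21.8 against 77.8 CPM (0.280), and Aoc3, an amine oxidase, at 32.3 against 119 CPM (0.271). Pparg, the master regulator of adipocyte differentiation, had 10 UMIs against 39 and was not compared. The genes of mature adipocytes Adipoq, Plin1 and Gpd1 had 0 UMIs in the class, and in the rest the 40 UMIs of Adipoq came from 3 cells. Dlk1, Lpl, Icam1, Plin2, Aoc3 and Pparg were chosen after their values were seen.

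The elastic matrix list (25 genes, 19 measured) had 2 genes higher and 2 lower, with a median log2 ratio of 0.46. Elastin itself, Eln, was level between the groups at 965 against 895 CPM (1.08, 0.992 to 1.17), and so was Mfap4, a microfibril protein, at 623 against 687 CPM (0.906, 0.820 to 1.00). Both Eln levels rested on few cells. In the class 4 members held 451 of its 1106 UMIs, and the other 104 stood at 591 CPM. In the rest, cells with at least 20 thinned Eln UMIs held 143 of 273 UMIs at 0 gate UMIs. They held 183 of 391 at 1 to 3 and 340 of 509 at 4 to 6. Ogn (osteoglycin, a small proteoglycan) was at 1241 against 604 CPM (2.06) and Efemp1, given above, was the other higher gene. Mgp (matrix Gla protein, an inhibitor of calcification) was at 11.3 against 110 CPM (0.103, 0.0537 to 0.182) and Emilin1, an elastic fibre protein, at 27.9 against 80.9 CPM (0.345). Eln and Mfap4 were named here after their values were seen.

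Of 26 collagen genes outside the gate, 12 were measured, with 1 higher and 4 lower (median log2 ratio -0.25). Col14a1, a collagen on fibril surfaces, was at 1778 against 790 CPM (2.25, 2.09 to 2.43). The basement membrane collagens Col4a1 and Col4a2 were at 176 against 1148 CPM (0.153, 0.132 to 0.178) and at 75.9 against 425 CPM (0.179), and Col12a1 at 144 against 340 CPM (0.424). The gate collagen Col1a1 had a median of 328.5 UMIs per member against 125 per cell of the rest, a value the mesenchyme gate partly fixed. Of 28 proteoglycan and hyaluronan genes, 17 were measured and 2 were higher (Prelp, 2.22, and Ogn) and 2 lower (Sdc4, a syndecan, 0.451, and Bgn, biglycan, 0.488), with a median of 0.46.

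In the Wnt pathway (50 genes, 9 measured, 3 higher, 1 lower, median log2 ratio -0.03), Wnt2 was joined by Sfrp2, a secreted Wnt modulator, at 198 against 80.9 CPM (2.45, 1.94 to 3.11) and by the receptor Fzd2 at 68.1 against 33.6 CPM (2.03, 1.38 to 3.00). Sfrp1, another secreted Wnt inhibitor, was lower at 34.0 against 71.7 CPM (0.474, 0.318 to 0.696). Without the 1 cell with the most UMIs of the gene, Fzd2 and Sfrp1 fell short of the threshold, with log2 ratios of 0.97 and -0.96. In the BMP and TGF-beta pathway (41 genes, 18 measured, 4 higher, 0 lower, median 0.22), Bmp3 was joined by Bmp2 at 96.8 against 35.1 CPM (2.76, 1.94 to 3.98), by Bmp1, the procollagen-cutting protease, at 279 against 119 CPM (2.35, 1.93 to 2.86), and by the receptor Tgfbr2 at 202 against 96.1 CPM (2.11, 1.69 to 2.64). Further BMP genes lay below the minimum for a comparison, and are named after their values were seen. The ligand Bmp7 had 72 UMIs in 47 members against 6 in 3 cells of the rest, the BMP antagonist Chrd (chordin) 36 against 3, and Bmp6 25 against 1.

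Growth factor genes of the FGF, PDGF and IGF families (34 genes, 16 measured) included 2 higher and 1 lower, with a median log2 ratio of 0.08. Besides Igfbp5, Igfbp6 was at 744 against 303 CPM (2.46, 2.18 to 2.78), while Igfbp7, a binding protein of the same family by name, was at 114 against 699 CPM (0.164, 0.135 to 0.197). Igf1 was at 182 against 335 CPM (0.544). Among 40 semaphorin and guidance genes outside the gate, 8 were measured, 2 were higher and 1 lower (median 0.19). Sema3b was at 74.2 against 14.49 CPM (5.12, 3.08 to 8.91), beside Sema3d, and the semaphorin receptor Nrp1 (neuropilin 1) was at 43.6 against 148 CPM (0.295, 0.211 to 0.404). Sema3c chose the members, so no shared direction with it is read from these genes.

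Peptidases and their inhibitors (49 genes, 36 measured) had 10 higher and 5 lower genes and a median log2 ratio of 0.31. Higher were, among others, Pcolce2 (an enhancer of procollagen processing) at 274 against 73.2 CPM (3.74, 2.97 to 4.75), Cpz (a carboxypeptidase that binds Wnt) at 289 against 105 CPM (2.76), Htra3 (a serine protease) at 600 against 219 CPM (2.74), and Timp3 (a metalloproteinase inhibitor) at 267 against 119 CPM (2.24). Lower were Mmp19, given above, Serpine2 (a thrombin and plasminogen activator inhibitor) at 7.85 against 84.7 CPM (0.0927, 0.0413 to 0.182), Timp1 at 55.0 against 305 CPM (0.180, 0.136 to 0.235), Adam12 (0.419) and Adamts12 (0.461). Against the Eln Mfap4 Mgp cells of the rest, defined further down, the log2 ratio of Timp1 was 0.67. That set leaves out the cells it shares with the Fabp4 Col15a1 set, and with them kept Timp1 did not change sign. Pcolce2, Cpz, Htra3, Timp3, Adam12 and Adamts12 were named after their values were seen.

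Of 30 complement and chemokine genes, 14 were measured, 2 were higher (Cd55 and Ackr3) and 4 lower, with a median log2 ratio of -0.13. The lower genes were the complement genes C4b at 21.8 against 73.2 CPM (0.298) and C1s1 at 109 against 237 CPM (0.461), and the chemokines Ccl11 at 24.4 against 64.1 CPM (0.381) and Cxcl12 at 193 against 441 CPM (0.437, 0.373 to 0.511). For Ccl11 the log2 ratio was 0.64 against the Eln Mfap4 Mgp cells of the rest, defined further down. With the cells kept that this set shares with the Fabp4 Col15a1 set, Ccl11 did not change sign. Against the Eln Mfap4 Mgp cells, shared cells left out, 4 of 12 measured genes of the list were higher and 0 lower (median log2 ratio 0.16). Over all genes of that comparison 6.12% were higher and 2.65% lower. Against the Fabp4 Col15a1 cells 2 of 12 were higher and 4 lower (-0.46), beside 9.60% and 4.38% over all genes. Among 61 mesenchymal transcription factors, 29 were measured, and 2 were higher and 1 lower (median 0.19): Ebf3 at 63.7 against 25.2 CPM (2.53, 1.65 to 3.94), Klf2 at 361 against 143 CPM (2.52, 2.11 to 3.01) and Runx1 at 22.7 against 61.0 CPM (0.372, 0.229 to 0.585). Klf2 was uneven, with 114 of its 414 UMIs in 1 member, and without that cell its log2 ratio was 0.89, short of the threshold. Klf4, a zinc finger factor of the same family, was at 1257 against 633 CPM (1.98), just short of the threshold.

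Retinoid genes (15, of which 3 measured) had 0 higher and 0 lower genes and a median log2 ratio of -0.73. Of 19 imprinted growth genes, 17 were measured, 1 was higher (Slc38a4, an amino acid transporter, 2.92, 1.88 to 4.65) and 0 lower, with a median of 0.34. Igf2 was at 3759 against 2540 CPM (1.48) and the cell cycle inhibitor Cdkn1c at 1532 against 939 CPM (1.63, 1.52 to 1.76). Proliferation genes (20, of which 6 measured) had 0 higher and 3 lower genes and a median of -0.79: Stmn1 and Cks2 both had a ratio of 0.381 and Hmgb2 one of 0.446, with a log2 ratio of -0.98, short of the threshold, without its top cell. Thinned sums over the 20 genes reached 9 UMIs in the highest member and 56 in the highest cell of the rest, with medians of 3 and 5, and at least 2 UMIs of Mki67 and Top2a together were found in 1 member and 6 cells of the rest.

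Digestion is known to induce immediate early and heat shock genes in dissociated cells. Of 27 such genes 26 were measured, 1 was higher (Hspa1a, 245 against 96.9 CPM, 2.53, with 44 of its UMIs in 1 member) and 1 lower (Egr3, 18.3 against 66.4 CPM, 0.276), and the median log2 ratio was -0.10. Thinned sums had medians of 61 UMIs in the class and 58 in the rest.

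The threshold of 7 UMIs cut a gradient, and the genes outside the gate followed it in different ways. The mesenchyme had 61 cells with 0 gate UMIs, 66 with 1 to 3, 30 with 4 to 6, 21 with 7 to 11 and 87 with 12 or more. Fbn1 stood at 602, 1069, 1767, 1864 and 3538 CPM over these bins, and Mfap5 at 414, 970, 1557, 1842 and 3087 CPM. Col15a1 stood at 309, 118, 43.6, 5.43 and 0 CPM, and Apoe at 3359, 1196, 931, 853 and 112 CPM. These 4 genes moved in order over the 5 bins, up for the microfibril genes and down for Col15a1 and Apoe. Fabp4 was at 790, 622, 297, 293 and 20.8 CPM, but in the bin of 7 to 11 1 cell held 30 of its 54 UMIs, and without that cell the bin stood at 136 CPM (86.9 to 202). Apoe in the same bin was at 546.5 CPM without the cell that held 62 of its 157 UMIs.

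Igfbp5 was a gene of the top bin, at 5.82, 12.9, 15.9, 5.43 and 482 CPM. Wnt2 was at 11.7, 25.8, 43.6, 16.3 and 154 CPM, and Cd55 at 33, 62.6, 178, 136 and 333 CPM. Akr1c18 was at 0, 20.2, 151, 38.0 and 355 CPM, and the 1 cell with 22 UMIs lay in the bin of 4 to 6. For all 4 genes the bin of 7 to 11, just inside the class, was no higher than the bin of 4 to 6, just outside it, and the highest level was that of the 87 cells with 12 or more gate UMIs. Other higher genes of the rule went both ways between these bins. Ackr3 rose from 39.6 to 125 CPM, Cadm3 from 27.7 to 65.2 and Bmp3 from 19.8 to 54.3. Sema3d, Cthrc1, Anxa3 and Efemp1 also rose. Prss23 fell from 43.6 to 27.2 CPM, Adamts5 from 119 to 76.1 and P2rx4 from 23.8 to 10.9. Tmem100 and Cd248 were close to level. Without the top cell of each bin, the intervals on both sides of the cut overlapped for each of them. Eln peaked in the bin of 7 to 11, at 530, 720, 2017, 3021 and 572 CPM over the bins. The height of this peak rested on few cells: 3 of the 21 cells with 7 to 11 gate UMIs held 404 of their 556 Eln UMIs. Without cells of at least 20 thinned Eln UMIs the values were 255, 404, 732, 980 and 528 CPM, still highest in the same bin.

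**Figure D4:**
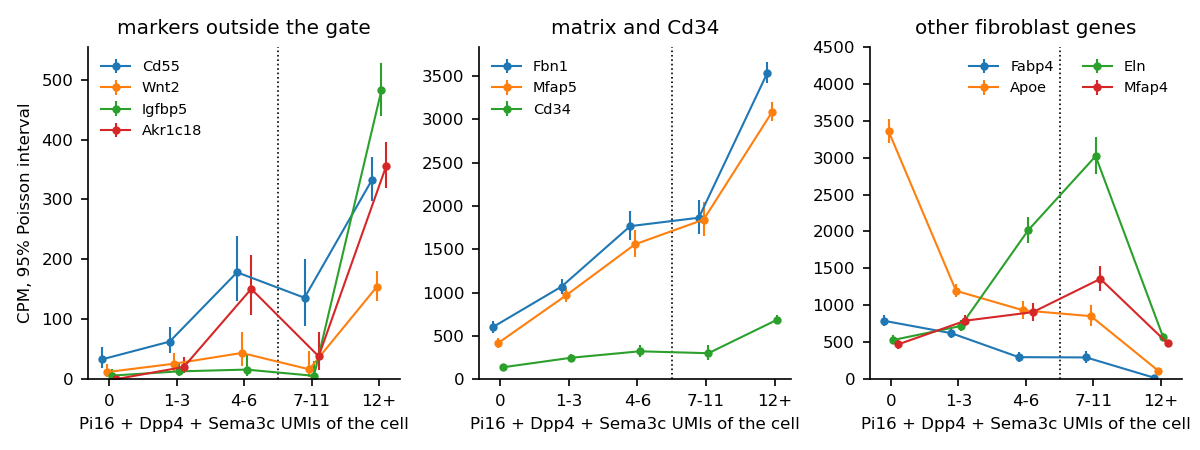
Levels in CPM with exact 95% Poisson intervals (error bars) of 11 genes in P0 mesenchyme cells binned by their UMIs of Pi16, Dpp4 and Sema3c (horizontal axis); the dotted line marks the threshold of 7. Igfbp5 reaches 482 CPM only in cells with 12 or more gate UMIs, Fbn1 and Mfap5 increase over the bins to 3538 and 3087 CPM, Apoe decreases from 3359 to 112 CPM, and Eln peaks at 3021 CPM in cells with 7 to 11.

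Within the class, Igfbp5 was found in a minority of cells. It was at 0 UMIs in 71 members, at 1 or 2 in 9 and at 3 or more in 28, a split chosen after its values were seen. The 28 cells had a median of 32 gate UMIs, none had under 13, and the 71 cells had a median of 15. Their median depths were 11424 and 9750 UMIs. Compared by CPM, the gate genes Pi16 (1.76, 1.54 to 2.02), Dpp4 (1.86, 1.51 to 2.29) and Sema3c (1.60, 1.42 to 1.80) were higher in the 28 cells. Their values chose the members, so these 3 ratios are no result. Outside the gate, the 28 cells were higher than the 71 in Wnt2 (1.73, 1.20 to 2.47), Cd55 (1.73, 1.37 to 2.18), Akr1c18 (2.33, 1.87 to 2.92), Tmem100 (2.45, 1.61 to 3.73) and Adamts5 (2.01, 1.61 to 2.52). They held 0 UMIs of Fabp4 against 74 in the 71 cells, 30 of them in 1 cell, 8 of Apoe against 252 (0.0701, 0.0300 to 0.140), and less Mfap4 (0.262, 0.202 to 0.335). For Eln the ratio was 0.222 (0.178 to 0.274), and 0.395 (0.315 to 0.491) without 4 Eln-rich cells, which were all among the 71 and held 451 of their 965 Eln UMIs. Klf4 (1.16, 1.04 to 1.30) and Ly6c1 (0.826, 0.643 to 1.05) were close to level between them.

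A few members stood at the other end. With at least 20 Eln UMIs after thinning, 4 members held 451 of the 1106 Eln UMIs of the class. Their gate totals were 8 to 18. Mfap4 was 6.17-fold higher in them than in the other 104 (5.05 to 7.49), and 3.78-fold (2.86 to 4.93) without the cell that held 66 of their 127 UMIs, while Cd248 was at 0.167 of the level of the others (0.0343 to 0.490) and Igfbp5 and Akr1c18 were at 0 UMIs. This split, too, was chosen after its values were seen.

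Members in which different gate genes gave most of the gate UMIs were set side by side. Between the 22 cells led by Pi16 and the 42 led by Sema3c, the ratios were 1.32 (0.803 to 2.15) for Wnt2, 1.00 (0.720 to 1.39) for Cd55, 0.890 (0.646 to 1.21) for Akr1c18 and 0.986 (0.893 to 1.09) for Mfap5, all with intervals across 1. Other genes differed: Ccl2 had a ratio of 0.476 (0.426 to 0.532), Cxcl1 one of 0.567 (0.518 to 0.620) and Cd34 one of 0.708 (0.560 to 0.889), and without the top cell of each gene they were 0.574, 0.609 and 0.728. These 3 genes were chosen after their values were seen. For 3 further genes 1 Pi16-led cell each decided the value. Eln had a ratio of 2.79 (2.42 to 3.21), but 1.24 (1.04 to 1.48) without the cell that held 282 of the 493 Eln UMIs. Apoe had a ratio of 1.96 (1.48 to 2.60), but 0.818 (0.555 to 1.19) without the cell that held 62 of 103 UMIs. For Igfbp5 it was 1.14 (0.849 to 1.53), and 0.448 (0.285 to 0.683) without the cell that held 49 of 76 UMIs.

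The genes higher in the class were also compared with the cells of the rest at either end of the mesenchyme, those rich in adipogenic and those rich in elastic genes. The 52 cells of the rest highest in Fabp4 and Col15a1 and the 52 highest in Eln, Mfap4 and Mgp shared 11 cells, which were left out of both, leaving 41 cells each. Both sets are ranges of a score. Against the Fabp4 Col15a1 cells, 193 of 2011 genes (9.60%) were higher in the class and 88 (4.38%) lower. Against the Eln Mfap4 Mgp cells, 120 of 1961 (6.12%) were higher and 52 (2.65%) lower, with the genes that define a set left out of its counts. All 15 higher genes of the rule had a ratio of at least 2 against each set, from 3.29 to 72.7 against the Fabp4 Col15a1 cells and from 2.25 to 43.1 against the Eln Mfap4 Mgp cells, P2rx4 through the 1 cell given above. Without its top cell of 15 UMIs, Tmem100 had a ratio of 1.96 against the Eln Mfap4 Mgp cells. The 15 genes had been chosen for being higher than the rest, which holds both sets. Igfbp5 had the ratios 72.7 and 43.1, and Akr1c18 was at 0 UMIs in both sets, which puts the class at least 36.4 times and 32.4 times above a floor of 3 UMIs per set.

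The contrasts were not the same for every gene. Efemp1 was 3.39 times the level of the Fabp4 Col15a1 cells (2.51 to 4.67) and 17.7 times that of the Eln Mfap4 Mgp cells (8.91 to 41.2). For Tmem100 the ratios were 16.4 and 2.25, resting on 2 and 13 UMIs in these sets, and for Sema3d 17.8 and 3.66, resting on 3 and 13 UMIs. Whether these pairs of ratios differ was not tested. Of the 15 lower genes, 12 had a ratio of at most 0.5 against the Fabp4 Col15a1 cells and 7 against the Eln Mfap4 Mgp cells, among them Wfdc18 (0.231), which had a ratio of 0.938 without 1 cell. Hbb-bt, 1 of the 12, rested on 3 and 2 UMIs. Fabp4 and Col15a1, which define the first set, are among the 12, so their ratios there are no result. Nor are those against the second set, from which the cells shared with the first had been left out. Apoe was lower against both (0.0758 and 0.303). Angptl4 was lower against the first (0.0503) and had a ratio of 0.890 against the second, but of 0.247 (0.468 without the cell with 22 of 46 UMIs) with the 11 shared cells kept in it. The interstitial progenitor list had 30 higher and 0 lower of 38 measured genes against the Fabp4 Col15a1 cells and 24 higher and 0 lower of 39 against the Eln Mfap4 Mgp cells.

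At the embryonic stages hardly any mesenchyme cell met the same gate. At E13.5 it was met by 0 of 129 mesenchyme cells, for which 3 counts of the total allow a share of up to 2.33% and the exact 95% upper limit is 2.82%. At E14.5 it was met by 2 of 31 (6.45%, 0.791 to 21.4) and at E15.5 by 11 of 279 (3.94%, 1.98 to 6.95), against 108 of 265 at P0. The embryonic cells were deeper, with median totals of 16573, 24268 and 24324 UMIs against 8778 at P0, and all 13 cells that passed did so with most of their gate UMIs from Sema3c. With cells thinned to 5000 UMIs, 0, 0, 0 and 73 cells had 7 or more gate UMIs. Each stage is 1 library, so stage and library cannot be told apart.

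Over all mesenchyme cells, Pi16 was at 0.855 CPM (0.104 to 3.09) at E13.5, 5.97 CPM (1.94 to 13.9) at E14.5, 1.55 CPM (0.773 to 2.77) at E15.5 and 407 CPM (383 to 433) at P0. Dpp4 was at 1.28, 1.19, 1.41 and 192 CPM, Sema3c at 25.2, 44.2, 26.9 and 558 CPM, and Cd55 at 2.99, 14.3, 13.2 and 180 CPM. Wnt2 was at 15.0, 5.97, 2.96 and 74.1 CPM. All 5 markers were thus far higher at P0 than in any embryonic library. Akr1c18 was at 0 UMIs at E13.5 and E14.5, 0.281 CPM at E15.5 and 162 CPM at P0, and Anxa3 at 11.1, 3.58, 4.79 and 212 CPM.

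Igfbp5 ran the other way, at 642 CPM (610 to 675), 588 CPM (538 to 643), 337 CPM (324 to 351) and 195 CPM (178 to 213). In the embryo it was found in 78.3%, 83.9% and 84.9% of mesenchyme cells, at depths above that of P0, and at P0 in 17.0%, of which 37 of 45 cells were in the Pi16 class. So the gene with the highest ratio at P0 was a gene of most mesenchyme cells in the embryonic libraries. Fabp4 was at 0 UMIs at all 3 embryonic stages and at 364 CPM (340 to 388) in P0 mesenchyme.

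**Figure D5:**
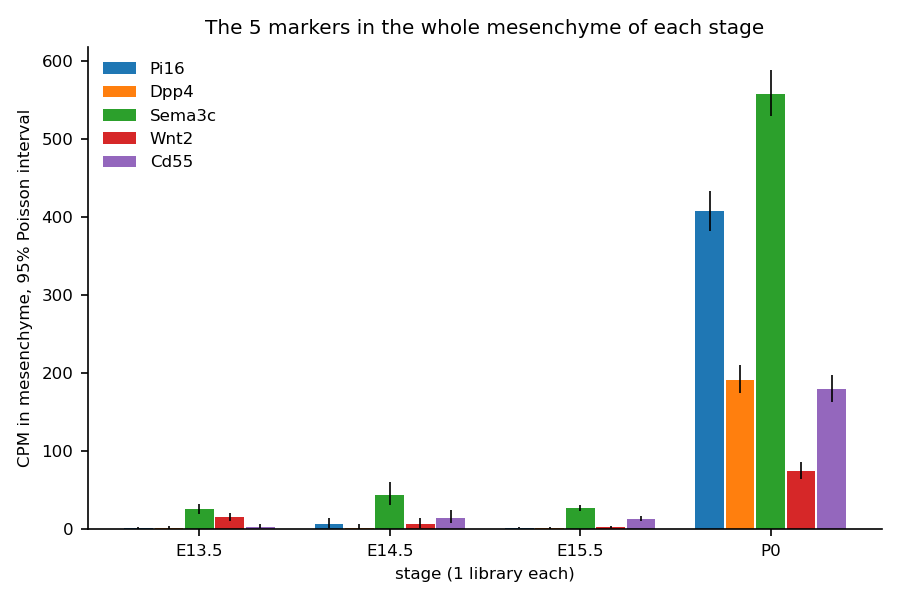
Levels of Pi16, Dpp4, Sema3c, Wnt2 and Cd55 (bars, CPM) over all mesenchyme cells of the 4 stages, 1 library each, with exact 95% Poisson intervals (error bars). At E13.5 to E15.5 no bar exceeds the 44.2 CPM of Sema3c at E14.5, and at P0 the bars stand at 407, 192, 558, 74.1 and 180 CPM.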

How the data were processed

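Single-cell RNA-seq was analysed from 4 libraries of mouse mammary tissue, 1 per stage, with P0 as the main one. The authors deposited UMI counts per gene and barcode, without normalization, made with Cell Ranger 6.0.0 on mm10 per the submitters' processing notes, while the header of the E15.5 table names an older version of it. The P0 table holds 7099444 UMIs in 1466 barcodes of at least 500 UMIs each. The study's own P0 analysis kept fewer cells than its stated filter of UMIs and mitochondrial share leaves. Its cell annotation was not used here.

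Counts were summed over cells and divided by all UMIs of the group to give CPM. Levels carry exact Poisson intervals, ratios exact conditional binomial intervals and shares exact binomial intervals, at 95%. Genes with at least 100 UMIs over class and rest were compared, and a ratio of at least 2 or at most 0.5 was counted. A group at 0 was set to 3 UMIs and the ratio written as a bound. The code was tested on simulated data. Thinning drew 5000 UMIs per cell at random. Doublets were kept, and Scrublet calls left out as an alternative. The members, the 26 gene lists and the tests were chosen with earlier results of these data known. Genes named were the 5 markers, the 15 genes with the highest lower and the 15 with the lowest upper bound of the ratio (mt-, Rpl, Rps and Gm genes left out), up to 4 measured genes per list by size of the log2 ratio and the most abundant gene of each list of other cells. All other genes named, most of them members of the lists, were chosen after their values were seen. Gene coordinates are from GENCODE M21 on GRCm38. Python 3.11.15, numpy 2.4.6, scipy 1.17.1, pandas 2.3.3, scanpy 1.11.5 and matplotlib 3.10.9 were used. Alternatives covered the filters, gates, depth, scaling, choice of the rest, gene minimum and fold.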

Additional observations from a re-analysis of the deposited data

How the results depend on the processing

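A UMI minimum of 10000 left 53 members, 60.2% of the mesenchyme, and a gate of 5 UMIs gave 126 members, 47.55%; the other filters, gates and the doublet calls moved these values less. The UMI minimum of 10000 also left 111 genes higher and 68 lower. Of these, 67 and 40 were among the 129 higher and 126 lower genes of the main comparison. With only cells of 0 gate UMIs as the rest, 222 genes were higher. With only the 41 Eln Mfap4 Mgp cells as the rest, 54 were lower, and with the 11 shared cells kept in that set, chosen after seeing the data, 69, their own marker genes counted. A gene minimum of 30 UMIs gave 372 higher and 409 lower of 6675 genes compared (5.57% and 6.13%). One of 300 UMIs gave 51 and 39 of 1090 (4.68% and 3.58%), beside 4.19% and 4.10% in the main comparison. Of the 3076 genes of the main comparison, a fold of 1.5 gave 372 and 372 (12.09% each). A fold of 3 gave 36 and 48 (1.17% and 1.56%). For the UMI minimum of 10000 and the rest of 0 gate UMIs no share was computed. With a gate of 4 UMIs after thinning, 1 cell passed at E14.5 and 3 at E15.5. Among 84 named genes, 7 genes past the minimum and the fold had a log2 ratio that changed sign under an alternative, Abcc9 under 2 of them: Hba-a1 (0.13) against the Fabp4 Col15a1 cells, Fabp4 (1.36), Timp1 (0.67), Ccl11 (0.64) and Abcc9 (-0.32) against the Eln Mfap4 Mgp cells, Hbb-bt (0.094) and Abcc9 (-0.013) with the shared cells kept, and P2rx4 (-0.20) without its top cell, which held 85 UMIs. The shared cells were among those highest in Fabp4 and Col15a1, and with them kept the Fabp4 ratio was 0.321. Without the member that held 30 of the 74 Fabp4 UMIs this ratio was 0.192 (0.130 to 0.280). With the shared cells left out it was then 1.54 (0.717 to 3.785). Timp1 and Ccl11 did not change sign with the shared cells kept. For genes other than Fabp4 the cause was not tested. Leaving out single cells within subsets and bins of the class, and the globin cell, was chosen after seeing the data; the latter gave 126 higher and 127 lower genes. No paired analysis was possible because each stage has 1 library and no replicates. Depth limits genes under 100 UMIs, and 1 library leaves the spread between animals unknown.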

Other observations

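Ranked by the variance over the mean of thinned counts (3150 genes, median 1.17), the highest values among members were those of Gm42418, Eln, Ccl2, Malat1, Cxcl2, Retn and Cxcl1, in this order. Of the chemokines and other secreted proteins further down to rank 12, Cxcl10 and Ptx3 are given as examples. Ccl2, a monocyte-attracting chemokine, ran from 0 over a median of 2 to 121 UMIs per member (ratio 46.2), Cxcl1 from 0 over 13 to 88 (24.7), Cxcl10 from 0 over 1 to 52 (16) and Ptx3, a secreted pattern recognition protein, from 0 over 6 to 61 (14.2). The class as a whole was level with the rest in Ccl2, at 3209 against 3253 CPM (0.986, 0.944 to 1.03), and in Cxcl1, at 4119 against 4584 CPM (0.898, 0.865 to 0.934). The ranking was chosen after seeing the data. Some genes ranked high through 1 cell: a single member held 70 of the 71 UMIs of Retn (resistin), and another 45 of the 51 of Nppc (C-type natriuretic peptide).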
